A study of Mus musculus with 40 samples.

Results

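This report describes 10 genes for fibronectin, tenascin C and the matricellular proteins of the heart, *Fn1*, *Tnc*, *Postn*, *Thbs1*, *Thbs2*, *Thbs3*, *Thbs4*, *Spp1*, *Sparc* and *Ccn2*, which were chosen by name. All 10 are listed among the 17646 genes of the male table and among the 17223 genes of the female table. PolyA RNA from mouse hearts was sequenced as 1 library per mouse, and the deposited level of a gene is in CPM, read counts divided by 1 scaling factor per library. The CM-Il11-Tg mice were heterozygous for α-MHC-MerCreMer, a tamoxifen-activated Cre recombinase driven by a cardiomyocyte promoter, and for *Rosa26-Il11*, a transgene that makes mouse interleukin 11 (IL11, a cytokine of the interleukin 6 family) once Cre has removed a stop cassette. The question was which transcripts change in the heart when cardiomyocytes make IL11.

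CM-Il11-Tg mice that had received tamoxifen as adults were sampled 1, 3 and 6 weeks after induction. Control mice, labelled WT, were age-matched littermates that carried α-MHC-MerCreMer without *Rosa26-Il11* and also received tamoxifen, so Cre and tamoxifen are shared by the controls and the induced groups. The labels place the controls at Baseline and give no week for them. The same controls of each sex were compared with hearts at 1, 3 and 6 weeks. Age and time since tamoxifen therefore cannot be matched at every week, and both also differ between the weeks. Their part in the differences cannot be told apart from that of IL11. Uninduced mice had the CM-Il11-Tg genotype without the drug, so they differ from controls in both the transgene and tamoxifen. Each group has 4 hearts, except for male controls and male hearts at 6 weeks with 3 each. The labels of 2 other male libraries name the control group in one field and 6 weeks in another, and both were left out of every test. The male and female tables were scaled separately and were therefore analysed separately.

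Depth was 16663513 to 65333832 reads per male library and 19147947 to 30929192 reads per female library, summed over the listed genes. Levels of *Il11* were at most 0.147 CPM in male and 0.166 CPM in female controls, 16.5 to 23.3 CPM in male and 15.5 to 49.1 CPM in female uninduced hearts, and 328 to 819 CPM in induced hearts of both sexes. The summed level of 6 cardiomyocyte markers was 18900 to 49000 CPM in the 38 grouped libraries, with no marker at 0 reads, and the tissue is labelled heart, while the study's text speaks of the left ventricle, so the part dissected is not certain. In RNA from whole tissue, fewer cells of a type and less RNA per cell cannot be told apart.

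Fibronectin is a large glycoprotein that cells assemble into fibrils through integrins, and these fibrils guide the laying down of collagen. Matricellular proteins are secreted into the matrix but act mainly by binding receptors, growth factors and collagen rather than by giving strength, and in the adult heart most are scarce until injury or overload, when fibroblasts, macrophages and stressed muscle cells make them. Thrombospondins 1 and 2 assemble into trimers, whereas thrombospondins 3, 4 and the cartilage oligomeric matrix protein COMP assemble into pentamers. On GRCm39 the annotation places *Fn1* (ENSMUSG00000026193) at chr1:71624673-71692419, *Tnc* (ENSMUSG00000028364) at chr4:63878014-63965443, *Postn* (ENSMUSG00000027750) at chr3:54268501-54298471, *Sparc* (ENSMUSG00000018593) at chr11:55285317-55314067 and *Spp1* (ENSMUSG00000029304) at chr5:104582165-104589235. The thrombospondin genes and *Ccn2* follow as *Thbs1* (ENSMUSG00000040152) at chr2:117941974-117957616, *Thbs2* (ENSMUSG00000023885) at chr17:14885761-14914528, *Thbs3* (ENSMUSG00000028047) at chr3:89122461-89134144, *Thbs4* (ENSMUSG00000021702) at chr13:92888095-92931501 and *Ccn2* (ENSMUSG00000019997) at chr10:24471333-24474900. Values count reads over the exons of each gene.

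In male hearts 7 of the 10 genes rose against control after 1 week, and 7 and 6 rose at the later times, while 0 fell. A change was called at an adjusted p under 0.05, and fold changes are on the log2(CPM + 0.5) scale. Of all genes tested in males, 18.9% rose and 14.6% fell at 1 week, 13.2% rose and 8.1% fell at 3 weeks, and 16.2% rose and 10.9% fell at 6 weeks. Rises of at least 2-fold numbered 7, 5 and 5 of the 10 genes at 1, 3 and 6 weeks, beside 6.11%, 5.57% and 6.98% of all genes tested. The median log2 change of the 10 genes was 1.22, 1.06 and 0.98, beside 0.02, 0 and -0.01 over all genes tested. The male counts were lower without control replicate 1, at 4 genes at 3 weeks and 3 at 6 weeks. Without control replicate 3 they were 3 and 3. Such fits also hold fewer controls, and the part of the smaller group in these losses was not tested. With the 2 libraries of conflicting labels placed by their titles the counts were 3, 0 and 0, and placed by their descriptions they were 7, 7 and 7. The library titled control had 511 CPM of *Il11*, and the one titled 6 weeks had 0.597 CPM. Male controls had at most 0.147 CPM of *Il11* and male hearts at 6 weeks 407 to 819 CPM.

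In female hearts 6 of the 10 genes rose after 1 week, and 6 and 9 rose at the later times, while 0 fell. Among all genes tested in females, 15.3% rose and 13.1% fell at 1 week, 16.8% rose and 14.5% fell at 3 weeks, and 21.7% rose and 21% fell at 6 weeks. Rises of at least 2-fold numbered 6, 6 and 8 of the 10 genes, beside 5.82%, 6.48% and 7.87% of all genes tested. The median log2 change of the 10 genes was 1.3, 1.33 and 1.94 in females, beside -0.02 over all genes tested at each week. *Fn1*, *Tnc*, *Postn*, *Sparc*, *Thbs3* and *Thbs4* rose at all 3 weeks in both sexes, and *Ccn2* was called in neither sex at any week.

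**Figure D1:**
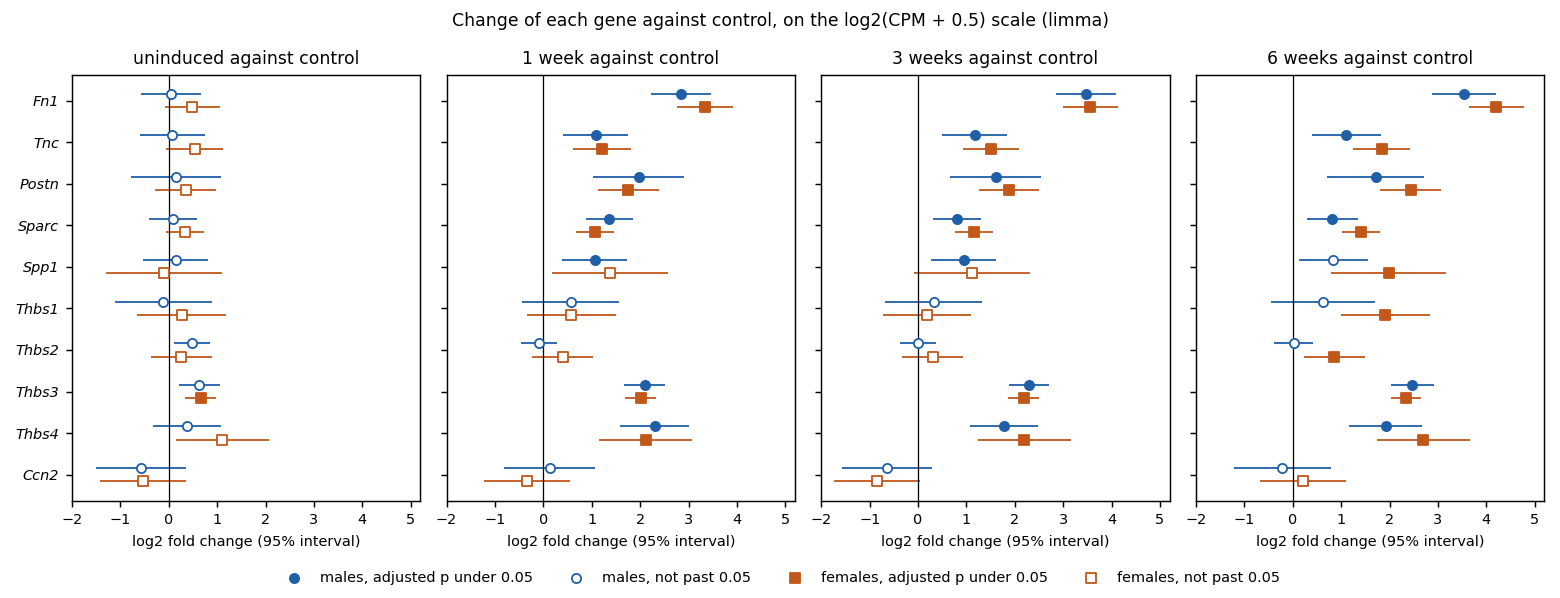
Log2 fold change of each of the 10 genes (rows) against control of the same sex, with 95% confidence intervals on the horizontal axis, in uninduced hearts and 1, 3 and 6 weeks after induction. Filled symbols mark an adjusted p under 0.05; *Fn1* has the largest change at every week in both sexes (2.84 to 4.2), and the intervals of *Ccn2* include 0 throughout.

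*Fn1*, which encodes fibronectin, changed most. Male controls had 46.2, 52.3 and 95.8 CPM. Male induced hearts had 522, 664, 535 and 204 CPM at 1 week, 836, 767, 569 and 593 CPM at 3 weeks, and 633, 823 and 699 CPM at 6 weeks. The lowest induced male heart, at 204 CPM, was still above the highest control. After 1 week *Fn1* was 7.14-fold above control (log2 2.84 ± 0.30 SE, adjusted p = 6.98e-07 by limma), and the later groups were 11-fold and 11.5-fold above it (at 6 weeks log2 3.53 ± 0.32 SE, adjusted p = 8.09e-08). Female controls had 47.3, 41, 62.3 and 55.7 CPM, and female hearts at 6 weeks had 722, 973, 1740 and 662 CPM. The female groups did not overlap either, and *Fn1* was 10.1-fold, 11.8-fold and 18.4-fold above control over the 3 times (at 6 weeks log2 4.20 ± 0.27 SE, adjusted p = 1.77e-10). Leaving out any single library of the groups compared kept each of these 6 calls. The ranking depends on the scale, since *Spp1* in females at 1 week had a log2 change of 3.54 in DESeq2. That of *Fn1* in the same comparison was at most 3.5 over all alternatives.

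*Postn* encodes periostin, which binds collagen and tenascin C and marks activated fibroblasts. Male controls had 27.7, 27.4 and 71.6 CPM, and male induced hearts ranged from 48.2 to 271 CPM in the 1-week group, from 78.5 to 161 CPM in the 3-week group and from 87.2 to 189 CPM in the 6-week group. The 1-week male group overlapped the controls through its heart at 48.2 CPM, which is the same heart that was lowest for *Fn1*. The male rise in *Postn* was 3.92-fold, 3.04-fold and 3.28-fold over the 3 times (adjusted p = 0.00227, 0.014 and 0.0118, limma). In females, controls ranged from 27.3 to 43.8 CPM and hearts at 6 weeks from 118 to 301 CPM with no overlap. The female rise was 3.36-fold, 3.66-fold and 5.42-fold (adjusted p = 0.000164, 6.64e-05 and 1.9e-06, limma). The male calls at 3 and 6 weeks were lost without control replicate 1 or control replicate 3, and the call at 6 weeks also without 6-week replicate 3, with the log2 change between 0.79 and 2.43 over all alternatives at 6 weeks.

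*Sparc* encodes osteonectin, a collagen-binding protein needed for collagen processing, and had the highest level per length of the 10 genes. Per kilobase of exons it stood at 121 ± 36.8 CPM in male controls and 112 ± 19.7 CPM in female controls (mean ± SD, n = 3 and 4), and *Ccn2* was the next highest at 13.7 ± 3.02 and 19.2 ± 2.02 CPM per kilobase. At 6 weeks *Fn1* had taken the second place, at 45.4 ± 6.09 CPM per kilobase in males and 64.7 ± 31.3 in females. *Sparc* in male controls was 483, 375 and 684 CPM, and all 4 male hearts at 1 week were higher, at 1050, 1750, 1300 and 1130 CPM, whereas the 3-week group overlapped the controls through its heart at 622 CPM. The male rise was 2.57-fold, 1.74-fold and 1.76-fold over the 3 times (adjusted p = 0.000213, 0.0194 and 0.0214, limma). The female rise was 2.1-fold, 2.22-fold and 2.65-fold (adjusted p = 0.000192, 7.52e-05 and 5.17e-06, limma), and the female groups did not overlap with controls at any week. The male calls at 3 weeks and at 6 weeks were lost without control replicate 1 or 3, at 3 weeks also without 3-week replicate 1 or 2, and at 6 weeks also without 6-week replicate 1.

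*Tnc* encodes tenascin C, a glycoprotein of developing and wounded tissue that loosens the grip of cells on fibronectin. It was scarce, with 26 to 194 reads and 0.985, 1.54 and 3.16 CPM in male controls and 1.33 to 2.16 CPM in female controls. Female hearts at 6 weeks had 6.66, 7.6, 9.2 and 5.52 CPM, all above every female control. *Tnc* was 2.31-fold, 2.84-fold and 3.59-fold higher in females at 1, 3 and 6 weeks (adjusted p = 0.00277, 0.000347 and 2.81e-05, limma) and 2.12-fold, 2.25-fold and 2.16-fold higher in males (adjusted p = 0.0141, 0.0124 and 0.0211, limma). Each male call was lost without control replicate 3, the control with the lowest *Tnc*, and the male call at 6 weeks also without control replicate 1 or 6-week replicate 1.

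*Spp1* encodes osteopontin, a ligand of integrins and CD44 made by macrophages among other cells, and had the lowest level per length of the 10 genes in controls. The male control libraries held 3, 0 and 42 reads on it, or 0.112, 0 and 0.684 CPM. Male hearts held 0.904, 2.26, 1.06 and 0.3 CPM at 1 week and 0.728, 0.741 and 0.863 CPM at 6 weeks. The 3 hearts at 6 weeks lie just above the highest control, and their difference did not pass the test (log2 0.84 ± 0.35 SE, adjusted p = 0.079 by limma). The male calls at 1 week (2.08-fold, adjusted p = 0.0166) and 3 weeks (1.92-fold, adjusted p = 0.0434) were both lost without control replicate 1 or 3. The call at 3 weeks was also lost in edgeR (adjusted p = 0.132), in DESeq2 (adjusted p = 0.0654) and with a pseudocount of 2 (adjusted p = 0.0871, limma), and that at 1 week with only the groups compared (adjusted p = 0.0584, limma). At 3 weeks the call was also lost without 3-week replicate 1, 2 or 4, and at 1 week without 1-week replicate 2, while at 6 weeks the difference passed without control replicate 4, the control with 42 reads.

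In females *Spp1* rested on few reads and on a pair of hearts that stood apart. Controls had 0.258, 0.0484, 0.3 and 0.277 CPM, or 1 to 6 reads. Hearts at 1 week had 0.534, 8.3, 0.836 and 0.477 CPM, and hearts at 6 weeks 0.951, 10.8, 1.72 and 1.2 CPM. Every induced female heart was above every control at all 3 weeks, and replicate 2 at 1 week and replicate 2 at 6 weeks were several times above the rest of their groups. In the limma fit the rise at 6 weeks passed the test (3.93-fold, log2 1.98 ± 0.57 SE, adjusted p = 0.00931), and without 6-week replicate 2 it was 2.47-fold (log2 1.31, adjusted p = 0.0461). Its log2 change ran from 1.05 to 4.08 over all alternatives. The differences at 1 week (log2 1.38, adjusted p = 0.0795) and 3 weeks (log2 1.11, adjusted p = 0.152) did not pass in limma, but the one at 1 week did in edgeR (log2 3.51, adjusted p = 0.0135) and DESeq2 (log2 3.54, adjusted p = 0.00156), and the one at 3 weeks did when only the groups compared were fitted (adjusted p = 0.000427, limma).

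The same pair of female hearts had the highest summed levels of 5 markers of tendon, valve and cartilage, of which 4 were tested. The sum was 39.6 CPM in 1-week replicate 2, with 5.72 to 9.46 CPM in the other hearts of that group, and 51 CPM in 6-week replicate 2, with 8.6 to 18.2 CPM in the rest and 4.45 to 6.55 CPM in controls. *Comp*, which encodes COMP, was also highest of its group in both hearts. It had 65.6 CPM per kilobase in 1-week replicate 2, with 9.51 to 18 in the rest of that group. In 6-week replicate 2 it had 155 CPM per kilobase, with 53.6 to 94.4 in the rest. The part of the tendon, valve and cartilage markers in the levels of *Spp1*, *Thbs4*, *Thbs2*, *Tnc* and *Comp* in those hearts was not tested.

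**Figure D2:**
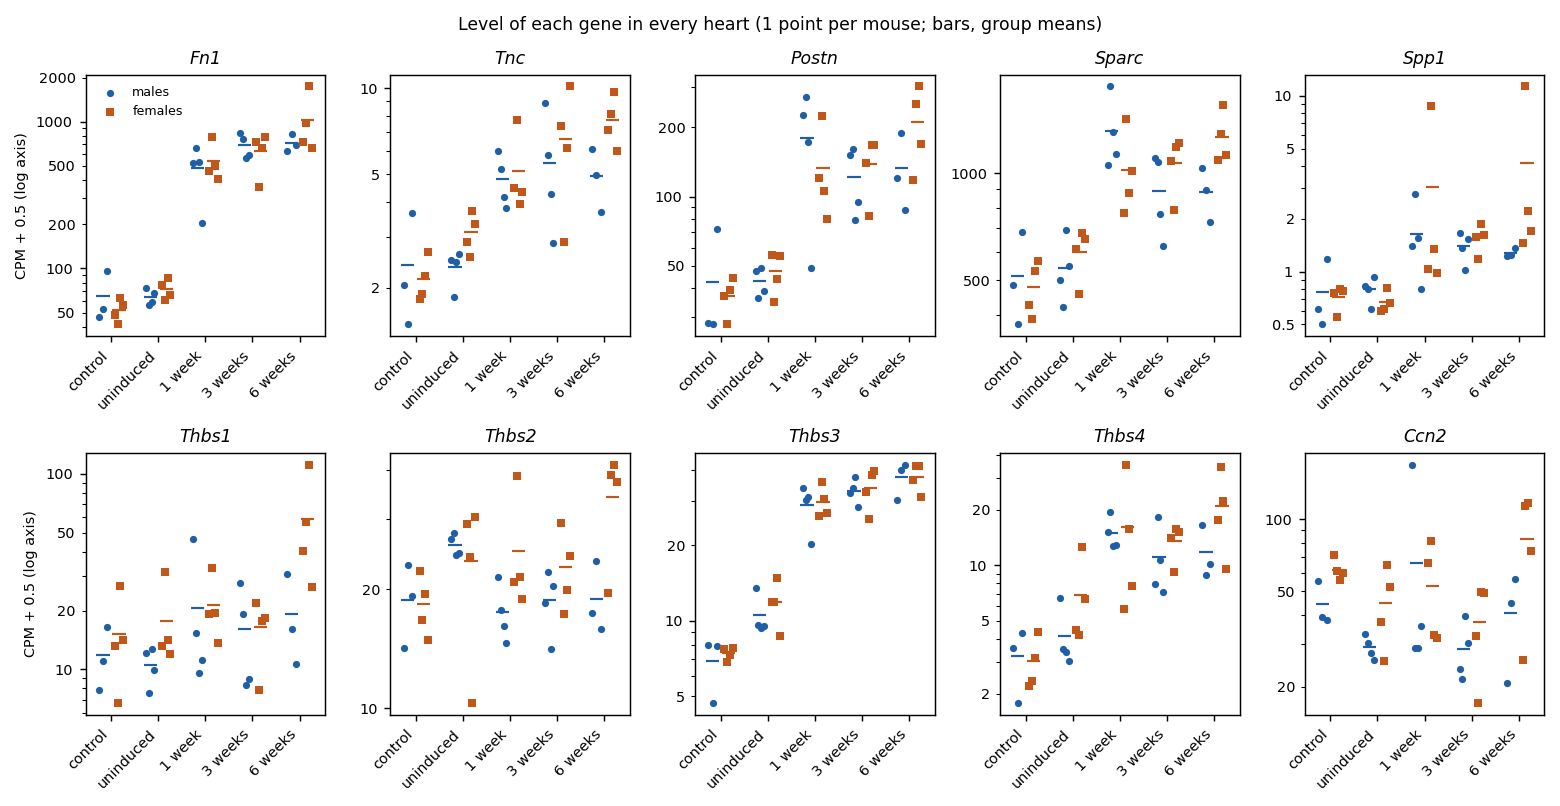
CPM + 0.5 on a log axis for each of the 10 genes in every grouped heart, by group on the horizontal axis, with blue circles for males, orange squares for females and bars for group means. *Fn1* and *Thbs3* separate all induced hearts from all controls and uninduced hearts of both sexes, while for *Ccn2* the induced groups overlap controls except in females at 3 weeks, and 1 male heart at 1 week reaches 169 CPM.

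*Thbs3*, which encodes a pentameric thrombospondin, separated every induced heart from every control. Male controls had 7.5, 4.2 and 7.44 CPM and female controls 7.19, 6.34, 6.8 and 7.26 CPM. Male induced hearts had 33.4, 29.8, 30.8 and 19.8 CPM at 1 week, 31.9, 33.3, 36.9 and 27.9 CPM at 3 weeks, and 29.9, 39.4 and 41.5 CPM at 6 weeks. Every induced male heart was thus above 19 CPM, as was every induced female heart, with 25 to 40.9 CPM. The rise was 4.25-fold, 4.91-fold and 5.54-fold in males and 4.02-fold, 4.54-fold and 5.06-fold in females at 1, 3 and 6 weeks. At 6 weeks the log2 change was 2.47 ± 0.21 (SE) in males and 2.34 ± 0.15 in females (adjusted p = 5.32e-08 and 2.17e-10, limma). Leaving out any single library kept all 6 calls.

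*Thbs4* encodes thrombospondin 4, a pentameric member of tendon and muscle that acts in the secretory pathway of stressed cardiomyocytes. Male controls had 3.07, 1.29 and 3.76 CPM, and male hearts at 1 week had 14.6, 19, 12.2 and 12.4 CPM. Female controls had 1.72, 1.84, 2.65 and 3.82 CPM, and female hearts had 5.26, 34.7, 15.2 and 7.24 CPM at 1 week and 17.1, 33.7, 21.9 and 9 CPM at 6 weeks. No induced heart of either sex overlapped the controls of its sex. *Thbs4* was 4.93-fold, 3.42-fold and 3.79-fold higher in males (adjusted p = 4e-05, 0.000695 and 0.000519, limma) and 4.32-fold, 4.57-fold and 6.52-fold higher in females (adjusted p = 0.00163, 0.00106 and 9.59e-05, limma). Without 1-week replicate 2 the female log2 change at 1 week was 1.61 in place of 2.11 (adjusted p = 0.00701), and all 6 calls held with any single library left out.

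*Thbs1* encodes thrombospondin 1, a trimer that can release active TGFβ and binds CD36 and CD47. Male controls had 7.35, 10.5 and 16 CPM, and male hearts 45.9, 14.9, 9.04 and 10.7 CPM at 1 week and 30.1, 15.5 and 10.2 CPM at 6 weeks. The male groups overlapped at every week, and the log2 difference at 6 weeks was 0.63 with a 95% interval of -0.45 to 1.7 (adjusted p = 0.391, limma). Female controls had 12.6, 6.24, 26.1 and 13.6 CPM, and female hearts at 6 weeks had 39.6, 56.2, 111 and 25.8 CPM, so that 3 of the 4 were above every control. In females *Thbs1* rose 3.76-fold at 6 weeks (log2 1.91 ± 0.44 SE, adjusted p = 0.00164 by limma), while the differences at 1 and 3 weeks were 0.58 and 0.19 on the log2 scale (adjusted p = 0.351 and 0.789). Whether the change at 6 weeks differed between the sexes was not tested.

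*Thbs2* encodes thrombospondin 2, a trimer that restrains matrix breakdown and vessel growth. Male induced hearts, at 13.6 to 23 CPM, lay close to male controls at 13.7 to 22.5 CPM, with log2 differences of -0.09, 0 and 0.02 and 95% intervals of -0.47 to 0.28, -0.37 to 0.38 and -0.38 to 0.42. Female hearts at 6 weeks had 19.1, 38.4, 40.7 and 36.7 CPM beside 21.7, 16.2, 18.9 and 14.4 CPM in controls. The female rise at 6 weeks was 1.82-fold (adjusted p = 0.0267, limma), and this call was lost in 5 of the 8 fits without a single library: control replicate 2 or 4, or 6-week replicate 2, 3 or 4.

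The pentameric genes made up most of the thrombospondin transcripts in induced hearts. This was described with *Comp*, which belongs to a list of relatives of the 10 genes and lies on chromosome 8. In the summed level per kilobase of *Thbs1*, *Thbs2*, *Thbs3*, *Thbs4* and *Comp*, the last 3 made up 25.4% to 50.8% in male controls and 27.3% to 45% in female controls. In induced hearts their share was 79.2% to 92.7% in males and 78.3% to 92.8% in females, with no heart in the range of the controls. Uninduced hearts lay between, at 51.5% to 64.6% in males and 47.1% to 75.1% in females, so a large share was not particular to induced hearts. Without *Comp* the share of *Thbs3* and *Thbs4* was 21.9% to 46% in male controls and 61% to 76.5% in male hearts at 6 weeks, but 25.1% to 39.7% and 39.4% to 58.8% in females, where the ranges overlap slightly. These shares were computed after the values of the genes had been seen and have no test.

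**Figure D3:**
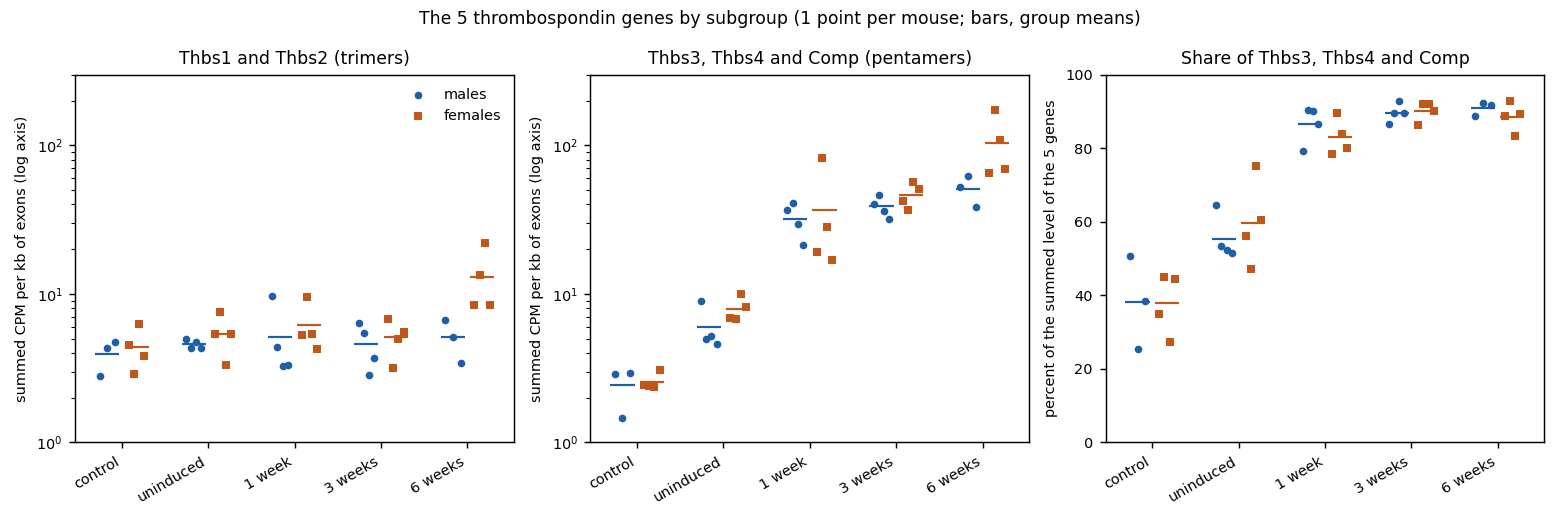
Summed CPM per kilobase of exons (log axis) of *Thbs1* and *Thbs2* (left) and of *Thbs3*, *Thbs4* and *Comp* (middle), and the latter as a percentage of all 5 (right), for every grouped heart by group and sex, with bars for group means. The pentameric sum rises from 1.46 to 3.04 in controls to 16.9 to 172 in induced hearts, and uninduced hearts lie between, at 4.62 to 9.96.

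*Ccn2* encodes connective tissue growth factor, a target of TGFβ and of the YAP and TEAD factors. Male controls had 54.7, 38.7 and 37.4 CPM, and male hearts 169, 28.5, 28.4 and 35.3 CPM at 1 week, 23.2, 21, 38.8 and 29.8 CPM at 3 weeks, and 20.2, 44.3 and 56.1 CPM at 6 weeks. Apart from the heart at 169 CPM, the same that had 45.9 CPM of *Thbs1*, the male values lay in or below the range of the controls up to 3 weeks. Female controls had 70.4, 60.2, 55.3 and 59 CPM, and all 4 female hearts at 3 weeks were lower, at 32.1, 16.6, 49.1 and 48.6 CPM. Female hearts at 6 weeks had 25.2, 113, 117 and 73.3 CPM, on both sides of the controls. No difference passed the test: the log2 differences against control were 0.13, -0.64 and -0.22 in males and -0.34, -0.85 and 0.21 in females, and at 6 weeks the 95% intervals were -1.21 to 0.78 and -0.68 to 1.1. The difference at 3 weeks passed in both sexes when only the 2 groups compared were fitted (adjusted p = 0.0396 in males and 0.0229 in females, limma), and without 1-week replicate 1 the male difference at 1 week was -0.48.

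The sequences just upstream of the transcription start are shown for 4 of the genes: the most changed gene, *Fn1*, the pentameric *Thbs3* and *Thbs4*, and *Thbs1*, which was called only in females at 6 weeks. Motifs were searched in 9 of the 10 genes. Each is the 250 bases before the start of the canonical GENCODE transcript on GRCm39, 5′ to 3′ on the strand of the gene, with matches to searched motifs in capitals. The motifs, searched on both strands, were the AP-1 site TGANTCA, the TEAD site GGAATG, the STAT site TTCNNNGAA, the GC box GGGCGG and the CArG box bound by SRF, and the TATA box TATAAA was searched on the strand of the gene.
Fn1, chr1:71692420-71692669, minus strand: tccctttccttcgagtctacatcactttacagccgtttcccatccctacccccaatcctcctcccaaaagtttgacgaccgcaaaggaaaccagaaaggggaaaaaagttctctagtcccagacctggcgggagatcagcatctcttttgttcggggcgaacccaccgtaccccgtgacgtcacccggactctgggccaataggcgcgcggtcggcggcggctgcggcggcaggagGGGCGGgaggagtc
Thbs3, chr3:89122237-89122486, plus strand: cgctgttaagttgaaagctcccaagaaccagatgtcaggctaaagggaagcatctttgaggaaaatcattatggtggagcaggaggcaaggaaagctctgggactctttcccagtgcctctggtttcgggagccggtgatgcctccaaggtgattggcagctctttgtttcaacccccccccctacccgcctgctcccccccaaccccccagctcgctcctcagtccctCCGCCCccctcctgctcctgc
Thbs4, chr13:92931327-92931576, minus strand: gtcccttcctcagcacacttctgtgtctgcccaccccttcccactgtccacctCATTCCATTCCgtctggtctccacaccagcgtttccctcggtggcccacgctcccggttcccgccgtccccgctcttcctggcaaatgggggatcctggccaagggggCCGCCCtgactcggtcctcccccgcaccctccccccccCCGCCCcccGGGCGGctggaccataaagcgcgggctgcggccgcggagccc
Thbs1, chr2:117941724-117941973, plus strand: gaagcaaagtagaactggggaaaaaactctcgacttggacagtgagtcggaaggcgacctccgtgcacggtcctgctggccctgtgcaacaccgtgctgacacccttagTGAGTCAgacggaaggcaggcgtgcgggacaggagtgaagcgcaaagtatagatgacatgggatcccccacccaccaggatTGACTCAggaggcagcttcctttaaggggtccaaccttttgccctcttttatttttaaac

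TEAD sites occur in *Thbs4* (an overlapping pair that begins 197 and 192 bases before the start, on the opposite strand) and in *Spp1* (69 bases before). Among 21770 promoters of the same length, 12.1% hold a TEAD site. The capitals in *Thbs1* are AP-1 sites that begin 141 and 60 bases before the start, and no other of the 9 genes has this site, which 6.17% of promoters hold. GC boxes, present in 36.3% of promoters, are the capitals in *Fn1* and *Thbs3* and the remaining 3 in *Thbs4*. *Tnc* has a STAT site 203 bases before its start, and 7.7% of promoters hold this motif. *Postn*, *Thbs2* and *Sparc* have none of the motifs in this window, and none of the 9 has the TATA box (8.03% of promoters) or the CArG box (1.4%). A match is a description of letters only.

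Uninduced hearts showed how the genes stood in CM-Il11-Tg mice without tamoxifen, where *Il11* was above control. In males 0 of the 10 genes were called higher or lower against control, beside 0.561% of all genes tested that rose, 0.0354% that fell and 0.366% that rose at least 2-fold. At an unadjusted p under 0.05 limma gave 2 of the 10, *Thbs3* and *Thbs2*, beside 1789 of all 16931 genes tested, and edgeR and DESeq2 also gave 2 members each. At an adjusted p under 0.05 edgeR and DESeq2 called 0. In females 1 gene, *Thbs3*, rose, beside 2.41% of all genes tested that rose, 0.466% that fell and 0.72% that rose at least 2-fold. Male uninduced hearts had 13, 9.1, 8.83 and 9.04 CPM of *Thbs3*, and female uninduced hearts 11.4, 11.4, 14.3 and 8.21 CPM, all above the controls of their sex. The difference was 1.57-fold in females (log2 0.66 ± 0.15 SE, adjusted p = 0.0202 by limma) and 1.55-fold in males (log2 0.63 ± 0.20 SE, adjusted p = 0.217). The female call was lost without control replicate 2 or uninduced replicate 3.

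Differences of the other members between uninduced hearts and controls did not pass the test, and several had wide intervals. *Fn1* had a log2 difference of 0.05 in males (95% interval -0.57 to 0.67) and 0.49 in females (-0.08 to 1.05). *Thbs4* differed by 0.38 in males (-0.32 to 1.09) and 1.11 in females (0.15 to 2.07, adjusted p = 0.243), an interval above 0 whose difference was not called. *Thbs2* was 26.3, 27.2, 23.9 and 24.2 CPM in uninduced males, above every male control, with a log2 difference of 0.49 (adjusted p = 0.318). *Ccn2* was lower in the uninduced males than in any male control, at 25.3 to 32.8 CPM, with a log2 difference of -0.58 (adjusted p = 0.699).

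Against uninduced hearts, which share both transgenes with the induced hearts but had no tamoxifen, 8 of the 10 genes differed in males at 1 week, 6 at 3 weeks and 6 at 6 weeks. Of all genes tested, 18.8%, 16.1% and 20.4% differed in these comparisons. *Fn1*, *Postn*, *Sparc*, *Tnc*, *Thbs3* and *Thbs4* were higher at all 3 weeks, and *Spp1* also at 1 week. *Thbs2* was the only member that was lower, with 21, 17.2, 15.6 and 14.1 CPM at 1 week, below every uninduced male heart. It was 0.668-fold of the uninduced level (log2 -0.58 ± 0.17 SE, adjusted p = 0.0186), and its differences at 3 and 6 weeks were -0.48 and -0.47 (adjusted p = 0.0533 and 0.0722). In females 4, 5 and 8 of the 10 genes differed at 1, 3 and 6 weeks, all higher, beside 12.6%, 16.7% and 22.8% of all genes tested. *Fn1*, *Postn*, *Sparc* and *Thbs3* were higher at all 3 weeks in females, *Tnc* joined at 3 weeks, and *Tnc*, *Thbs4*, *Thbs1* and *Spp1* were higher at 6 weeks. *Fn1* was 11.2-fold above uninduced hearts at 6 weeks in males and 13.2-fold in females. The comparisons with control and with uninduced hearts share the induced libraries, so they are not independent.

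Between the weeks after induction, 0 of the 10 genes differed in either sex. In males 0.0177%, 0.165% and 0% of all genes tested differed between 3 and 1, 6 and 1, and 6 and 3 weeks, and in females 0.218%, 1.03% and 0%. At an unadjusted p under 0.05 limma gave 2, 2 and 0 members in males and 0, 5 and 3 in females for these 3 comparisons. At the same threshold it gave 2710, 2615 and 1072 of all 16931 genes tested in males. In females it gave 1699, 2137 and 2572 of all 16956 genes tested. At an adjusted p under 0.05 edgeR called 0 members in each, and DESeq2 called only *Thbs1* in females at 6 against 3 weeks. In males *Fn1* was 0.69 higher (log2, 95% interval 0.07 to 1.31) and *Sparc* 0.55 lower (-1.04 to -0.05) at 6 weeks than at 1 week. In females *Fn1* was 0.87 higher (0.3 to 1.43) and *Thbs1* 1.33 higher (0.42 to 2.25) at 6 weeks than at 1 week, with adjusted p = 0.158 and 0.191. *Thbs1* at 6 weeks, at 25.8 to 111 CPM, lay above every female heart at 3 weeks, at 7.37 to 21.4 CPM (log2 1.73, 95% interval 0.81 to 2.64, adjusted p = 0.154). A call appeared when 1 library was left out: *Fn1* between 6 and 1 weeks without female 1-week replicate 2 (adjusted p = 0.0478), and *Thbs1* and *Ccn2* between 6 and 3 weeks without female 6-week replicate 1 (adjusted p = 0.0497 and 0.0404).

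Relatives of the members were read from a list. Of 20 further matrix genes from the thrombospondin, CCN, SPARC, tenascin and related families, 14 were tested, and at 6 weeks 8 rose and 1 fell in males and 9 rose and 2 fell in females. Of all genes tested, 16.2% rose and 10.9% fell in males and 21.7% rose and 21% fell in females. The largest rise was that of *Comp*, the remaining pentameric thrombospondin, with log2 changes of 6.17 ± 0.29 (SE) in males and 7.08 ± 0.41 in females at 6 weeks (adjusted p = 1.37e-11 and 3.86e-11, limma). *Comp* also rose in uninduced hearts of both sexes (log2 2.43 and 2.71). *Ccn5*, a CCN protein without the domain that binds heparin, rose by 4.85 and 5.64, and *Smoc2*, of the SPARC family, by 1.88 and 1.71. Chosen after the values were seen, *Ccn1*, another target of YAP, had log2 differences of -0.93 in males and -0.13 in females at 6 weeks that did not pass, although it fell in females at 3 weeks (log2 -1.22, adjusted p = 0.0286 by limma). *Sparcl1*, a relative of *Sparc* named on the same basis, fell in both sexes at every week.

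Of 16 receptors for these proteins, all tested, 7 rose and 3 fell in males at 6 weeks, beside 16.2% and 10.9% of all genes tested. In females 10 rose and 2 fell, beside 21.7% and 21% of all genes tested. The osteopontin receptor gene *Cd44* rose by 0.76 (log2) in males and 1.59 in females, *Itgb8*, an integrin subunit that activates TGFβ, by 2 and 2.82, and *Sdc4*, a syndecan that binds fibronectin, by 1.19 and 1.64. Chosen after their values were seen, *Cacna2d1*, which thrombospondins bind, fell at each week in both sexes, and *Itga5*, the classical fibronectin receptor subunit, had log2 differences of 0 and -0.25 at 6 weeks that did not pass. Of 15 known inducers of the members, 14 were tested. At 1 week 3 rose and 2 fell in males, and at 3 weeks 4 rose and 1 fell in females. At 6 weeks 3 rose in males and 6 in females with 0 falling. This stands beside 16.2% of all genes tested that rose in males and 21.7% in females, and 10.9% and 21% that fell. *Junb*, an AP-1 subunit, rose by 1.91 and 2, *Stat3* by 0.92 and 0.91 and *Mrtfa*, the partner of SRF, by 0.85 and 0.68. *Yap1* and *Tgfb3*, named after their values were seen, were not called in either sex at any week.

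**Figure D4:**
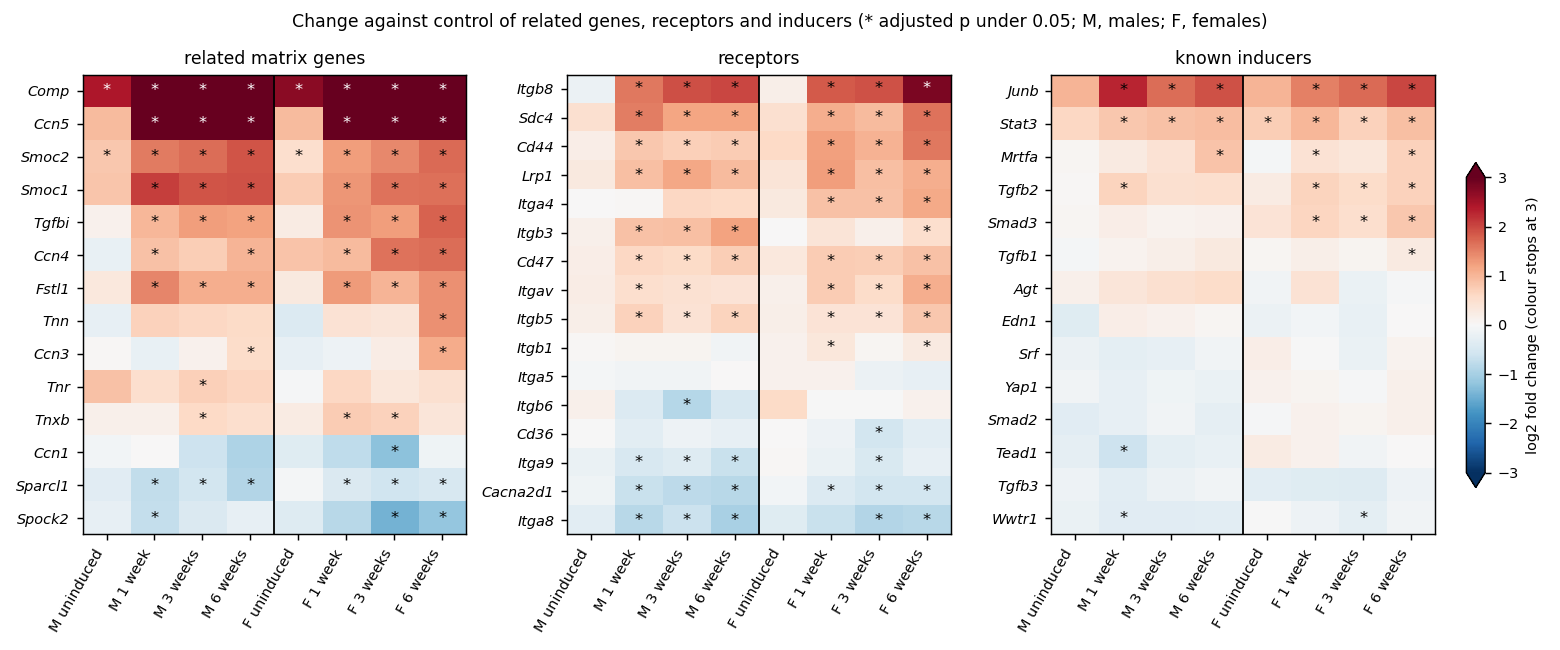
Log2 fold change against control of 14 related matrix genes, 16 receptors and 14 inducers (rows), in uninduced hearts and at 1, 3 and 6 weeks in males (M) and females (F). Red is higher, blue is lower, the colour stops at 3 and a star marks an adjusted p under 0.05; *Comp* and *Ccn5* are past the end of the scale at every week.

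Marker lists for cell types were read beside these changes. The summed level of 8 fibroblast markers was 1440 to 1810 CPM in male controls and 4750 to 6400 CPM in male hearts at 6 weeks, and 1930 to 2250 and 6460 to 10700 CPM in females, with 6 of the 8 higher and 1 lower at 6 weeks in each sex. The sum of 8 macrophage markers was 87 to 159 and 343 to 507 CPM in males and 86.4 to 110 and 449 to 525 CPM in females, with 7 and all 8 higher. Of 5 markers of activated fibroblasts, 2 rose and 1 fell in males and 3 rose in females, and among 3 tested platelet markers 3 and 2 rose. The sum of the activated fibroblast markers was 99 to 246 CPM in male controls and 161 to 189 CPM in males at 6 weeks. In females this sum was 115 to 275 and 212 to 318 CPM. Of 5 endothelial markers 3 were lower in each sex, of 6 cardiomyocyte markers 2 were lower in males and 4 in females, and 1 of 5 markers of smooth muscle and pericytes was lower in each. The sum of the cardiomyocyte markers was 40600 to 49000 CPM in male controls and 22200 to 33300 CPM in males at 6 weeks. In females this sum was 23000 to 39800 and 19900 to 29500 CPM, which overlap. Of 4 markers of epicardium and mesothelium, 0 were called in males and 3 rose in females, and for tendon, valve and cartilage these counts were 0 and 3 of 4, while 0 of 2 tested neutrophil markers were called. Of all genes tested at 6 weeks, 16.2% rose and 10.9% fell in males, and 21.7% rose and 21% fell in females. No marker on these lists that the tables hold was at 0 reads throughout a group. The part of cell numbers in the changes of the 10 genes was not tested.

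Across libraries some genes followed the members closely. The gene most like *Fn1* among 16627 genes tested in both sexes was *Abi3bp*, a matrix protein gene, with Pearson r = 0.988 over 18 male libraries and 0.996 over 20 female libraries on the log2 scale. *Thbs3* was most like *Scara3* (0.984 and 0.985), and *Postn* and *Sparc* were both most like *Fstl1* (0.958 and 0.955, and 0.933 and 0.968). *Thbs1*, *Thbs2* and *Ccn2* had no close companion, since the most alike were *Fam107b* (0.711 and 0.738), *Alg10b* (0.612 and 0.599) and *Cd9* (0.643 and 0.665). Between members, *Fn1* and *Thbs3* had r = 0.955 and 0.977, whereas *Fn1* and *Ccn2* had r = 0.009 and 0.117. These values describe libraries that share 5 groups and a common scaling within a sex, and are given without a test.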

How the data were processed

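PolyA RNA from 40 mouse hearts was sequenced, and 38 libraries were placed in groups from the labels. The authors aligned reads with STAR to GRCm39, counted them per gene with featureCounts and scaled them with edgeR, and they deposited 1 table per sex of CPM-like signal values, each a read count divided by 1 factor per library. The column sums of these deposited values run from 817395 to 1196278, so they are not plain CPM. Whole reads were recovered for 100% of values within a tolerance of 0.001 read. Genes with few reads are not listed, by a rule not given in the sources used here. The lowest chi-square per gene between replicate libraries was 6.76 over 54 pairs, so all replicates differed by more than sampling noise.

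Values were tested as log2(CPM + 0.5) with limma 3.58.1 (lmFit and eBayes with a trend, R 4.3.3), with all grouped libraries of 1 sex in 1 fit, after a filter of at least 0.5 CPM in at least 3 libraries. This left 16931 genes in males and 16956 in females, over which p-values were adjusted by Benjamini-Hochberg. Adjusted p-values in the report come from this fit unless another tool is named, and 95% intervals are its own. Alternatives were other pseudocounts, filters and scaling, fits of only the groups compared, the replicate number as a block, edgeR 4.0.16 and DESeq2 1.42.0 on the recovered reads, and left-out libraries. Steps were tested on simulated data. Level per kilobase used GENCODE exon lengths, and promoter windows and motif counts came from the GRCm39 reference; that of *Ccn2* is not reported here. The counting notes used here do not give a strand setting, so reads of overlapping genes may be shared.

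Named genes were the 10 members, *Il11*, up to 3 genes of each list with the largest mean change at 6 weeks, and the 3 genes most like each member. The members and the lists were chosen with earlier results of these data known. Replicates are separate mice.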

Additional observations from a re-analysis of the deposited data

Results flagged for a closer look

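For 10 pairings of a gene with a group of 4 hearts, 1 heart stood apart from the others by Dixon's criterion at the 95% level, which chance meets in about 1 in 20 groups. All 10 genes were searched in every group of 4 hearts, so some pairings are met by chance. Other genes were not searched, so the count of pairings has no background over all genes. The rate of 1 in 20 holds for normally distributed values, and the rule was applied to CPM without a log. Some pairings fall in the same heart and are not independent. In males these were *Thbs1* and *Ccn2* in 1-week replicate 1 (45.9 and 169 CPM) and *Thbs3* and *Thbs4* in uninduced replicate 1 (13 and 6.12 CPM). In females they were *Tnc*, *Thbs2* and *Spp1* in 1-week replicate 2 (7.22, 38 and 8.3 CPM), *Spp1* in 6-week replicate 2 (10.8 CPM), *Thbs1* in uninduced replicate 2 (30.9 CPM) and *Spp1* in control replicate 2, which was the lowest of its group (0.0484 CPM, 1 read). Without 1-week replicate 2, *Tnc* in females at 1 week had a log2 change of 0.99 (adjusted p = 0.0144, limma), and *Spp1* 0.63 (adjusted p = 0.35).

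The 2 male libraries with conflicting labels entered no comparison. The library titled control and described as 6 weeks had 511 CPM of *Il11* and was above every control for 8 of the 10 genes: *Fn1* at 792 CPM, *Sparc* at 897 CPM, *Postn* at 130 CPM, *Thbs3* at 29.4 CPM, *Thbs1* at 23.5 CPM, *Thbs4* at 10.4 CPM, *Tnc* at 4.14 CPM and *Spp1* at 1.15 CPM. The library titled 6 weeks and described as control had 0.597 CPM of *Il11*, where the highest control had 0.147 CPM. Of the 10 genes it was above every control for *Thbs3* alone, at 7.56 CPM against 7.5 CPM in the highest control. The share of all genes above every control was not counted for either library, so these counts of members have no background.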

How the results depend on the processing

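Of 42 gene values against control that were called, 0 changed direction under any alternative, and 17 of 38 that were not called did. With the 2 libraries of conflicting labels placed by titles, the members called in males were 3, 0 and 0 at 1, 3 and 6 weeks (7, 7 and 6 without them), and 4 in place of 20 member-week pairs against uninduced hearts. Leaving out replicate numbers or single libraries gave 4 to 7 members in males at 1 week, 3 to 7 at 3 weeks, 3 to 7 at 6 weeks and 10 to 21 pairs against uninduced hearts, of which 12 were without uninduced replicate 2. In females these fits gave 0 to 1 in uninduced hearts, 0 to 2 pairs between weeks, 6 to 7 members at 1 and 3 weeks, 8 to 9 at 6 weeks and 14 to 19 pairs against uninduced hearts. Fitting only the groups compared gave 0 in uninduced females, and DESeq2 gave 1 pair between weeks in females. The causes were not tested.

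Over all genes, the count called at 6 weeks in males was 4580, and 2819 with only the groups compared. In uninduced males it was 101, and 275 by DESeq2 and 30 to 248 without a replicate number; in uninduced females it was 487, and 170 with only the groups compared, 789 by DESeq2 and 269 to 363 without a replicate number. Without replicate 3 the male counts were 2953 of 5671, 1770 of 3610 and 2481 of 4580, without replicate 2 the female count at 1 week was 3012 of 4813, and by titles the male counts were 3259, 0, 0 and, uninduced, 1. Samples with the same replicate number did not deviate together on average (mean r = 0.0132 in males and 0.0255 in females). Single pairs ran from -0.134 to 0.256 in males and from -0.342 to 0.563 in females. Such a mean cannot show that no samples were paired. The replicate block left the counts of members within 1.5 times, gave 65 in place of 101 genes in uninduced males, and ended the male call of *Spp1* at 3 weeks (adjusted p = 0.0824, limma). Low counts limit *Spp1* most, with 0 to 42 reads in controls.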
